A study of Mus musculus with 125 samples.

Results

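Accessible chromatin was compared between day 10 (time point 2, TP2) and day 4 (time point 1, TP1) of co-culture in the mouse B-ALL lines A and B grown with NK cells. The comparison held 24 of the 125 ATAC-seq libraries of the series, chosen by their labels: 12 from day 10 and 12 from day 4, with 3 libraries for each line on each day in experiments 9.6 and 9.5. It asked which regions opened or closed between the early and the later sampling of leukaemia cells under NK cell pressure. All B-ALL cells came from bone marrow of wild-type mice, were transformed by the BCR/ABL p185 fusion kinase, carried a DNA barcode library and GFP, and went through a GFP+ sort ahead of the transposase step. Lines A and B were made by barcoding the same parental line, so they are not independent of each other. The NK cells were primary mouse cells activated with IL-2, and surviving leukaemia cells received fresh NK cells during the culture. Both days are taken from the labels. In the text of the study TP2 has a later day. No B-ALL cells cultured alone were labelled for day 10 in these experiments, so the length of culture and the length of NK cell exposure cannot be told apart.

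NK cells kill their targets with perforin and granzymes and secrete interferon-γ (IFN-γ). In the target cell IFN-γ acts through JAK kinases and factors that bind GAS elements and induce the factor IRF1, and members of the IRF family bind ISRE elements. Known outputs are the GTPases of the GBP and IRG families, the MHC class I pathway and ligands such as PD-L1. In bulk samples, a change in every cell and a change in the share of cells with an open region cannot be told apart.

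Counts in the consensus peaks were scaled to CPM (counts divided by the effective library size and multiplied by a constant), and a peak was called where the Benjamini-Hochberg adjusted p of edgeR's quasi-likelihood test over all 132466 tested peaks (of 256400 consensus peaks) was 0.05 or less and the absolute log2 fold change was 0.58 or more. Fold changes are day 10 over day 4, ± SE. By this rule 388 peaks were higher at day 10 (0.293% of the tested peaks) and 1365 were lower (1.03%), with median log2 fold changes of 0.72 and −0.73, against 0.01 over all tested peaks. A promoter peak had its centre within 3 kb of a transcription start site (TSS), and of 25293 such peaks 45 (0.178%) were higher and 199 (0.787%) were lower. Promoter peaks refitted alone gave 129 higher and 124 lower, so the excess of lower promoters depended on the peaks fitted with them.

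Sequences of 6 regions are printed to show the DNA that carried these differences. Tmem26 and Rasgrp3 were among the 12 lowest named peaks, Epb41l2, Fsip1 and Enpp5 were lower peaks that held an ISRE and stood above B-ALL alone at day 4, and Serpina3i was the highest named peak. The first 5 are the central 200 bases of the peak and the last is the RefSeq promoter, 250 bases before to 50 after the start, all on the plus strand of GRCm38.p6. Capitals mark a match on either strand to ISRE (GAAANNGAA), RUNX (TGTGGT) or, in Serpina3i, GAS (TTCNNNGAA). The positions are chr10:68795452-68795651 for Tmem26 (intergenic), chr17:75465357-75465556 for Rasgrp3 (promoter), chr10:25331546-25331745 for Epb41l2 (intergenic), chr2:118218169-118218368 for Fsip1 (intron), chr17:44090963-44091162 for Enpp5 (intergenic) and chr12:104262872-104263171 for Serpina3i. Other sequences were looked at and are not printed. The centre of the peak near 1700048P04Rik, the lowest named peak, held no ISRE and 2 RUNX matches. The RefSeq promoters of Vav3 and Cdc42ep4 held no ISRE, RUNX or GAS match. A peak is named by the gene of its nearest TSS, which need not be the gene it acts on.
Tmem26: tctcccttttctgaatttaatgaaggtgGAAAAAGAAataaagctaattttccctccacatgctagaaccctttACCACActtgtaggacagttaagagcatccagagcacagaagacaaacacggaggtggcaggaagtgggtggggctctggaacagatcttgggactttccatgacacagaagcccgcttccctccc
Rasgrp3: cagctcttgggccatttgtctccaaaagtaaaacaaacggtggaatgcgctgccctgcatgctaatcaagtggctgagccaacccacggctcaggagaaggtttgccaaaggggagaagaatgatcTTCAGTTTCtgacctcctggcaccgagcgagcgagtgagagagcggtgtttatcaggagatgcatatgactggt
Epb41l2: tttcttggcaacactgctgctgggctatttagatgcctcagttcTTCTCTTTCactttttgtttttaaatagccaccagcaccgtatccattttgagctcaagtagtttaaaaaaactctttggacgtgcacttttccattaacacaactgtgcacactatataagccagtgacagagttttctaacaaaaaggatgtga
Fsip1: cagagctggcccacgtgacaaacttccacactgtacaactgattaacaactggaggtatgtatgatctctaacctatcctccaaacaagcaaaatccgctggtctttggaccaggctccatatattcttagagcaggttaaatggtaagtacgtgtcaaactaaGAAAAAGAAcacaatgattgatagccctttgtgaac
Enpp5: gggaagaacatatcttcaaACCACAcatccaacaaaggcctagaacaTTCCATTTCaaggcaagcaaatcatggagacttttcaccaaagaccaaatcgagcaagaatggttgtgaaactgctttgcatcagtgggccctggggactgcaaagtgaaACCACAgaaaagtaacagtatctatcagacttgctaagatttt
Serpina3i: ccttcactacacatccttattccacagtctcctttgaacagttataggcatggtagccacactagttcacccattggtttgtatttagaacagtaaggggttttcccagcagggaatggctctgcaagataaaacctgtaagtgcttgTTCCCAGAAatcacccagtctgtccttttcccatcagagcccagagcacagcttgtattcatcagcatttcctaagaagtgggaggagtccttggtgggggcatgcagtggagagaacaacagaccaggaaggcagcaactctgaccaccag

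The ISRE letters stood in the central 200 bases of 15.8% of the lower peaks and 2.84% of the higher peaks, against 6.06% of all tested peaks. Among tested peaks away from promoters that were called as broad peaks in every replicate of a group, the share was 7.94%. RUNX letters were in 19.5% of the lower, 15.7% of the higher and 16.7% of all tested peaks. Of all 32851 promoter sequences of 300 bases, the length printed for Serpina3i, 8.56% held ISRE, 16.76% RUNX and 8.3% GAS letters. A match is a description of the letters and was not tested as a binding site.

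The named peak with the lowest fold change lay in an intergenic stretch of chromosome 10 near 1700048P04Rik (chr10:68843848-68845949, 59602 bp from the TSS). In experiment 9.6 its 6 libraries of day 10 had 1.89, 2.35 and 3.06 CPM (lowest, median, highest), against 8.94, 13.3 and 19.1 CPM at day 4. In experiment 9.5 they had 1.02, 2.19 and 4.65 CPM at day 10, against 1.74, 5.73 and 8.88 CPM at day 4. The days did not overlap in 9.6 and overlapped in 9.5. The log2 fold change was −1.97 ± 0.15 (edgeR adjusted p = 2.85e-12), and the mean of B-ALL alone was 9.12 CPM.

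Its neighbour assigned to Tmem26 (chr10:68794732-68796373, 71806 bp from the TSS, intergenic), whose centre is the first sequence above, behaved alike. In 9.6 it had 1.43, 2.15 and 3.6 CPM at day 10, against 8.01, 11.1 and 18 CPM at day 4. In 9.5 it had 0.677, 2.22 and 4.03 CPM at day 10, against 2.40, 5 and 11.1 CPM at day 4. The log2 fold change was −1.90 ± 0.16 (edgeR adjusted p = 4.71e-11). Both peaks belong to a run of 4 tested peaks (chr10:68794732-68845949), all 4 of them lower, with a median log2 fold change of −1.94.

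**Figure D1:**
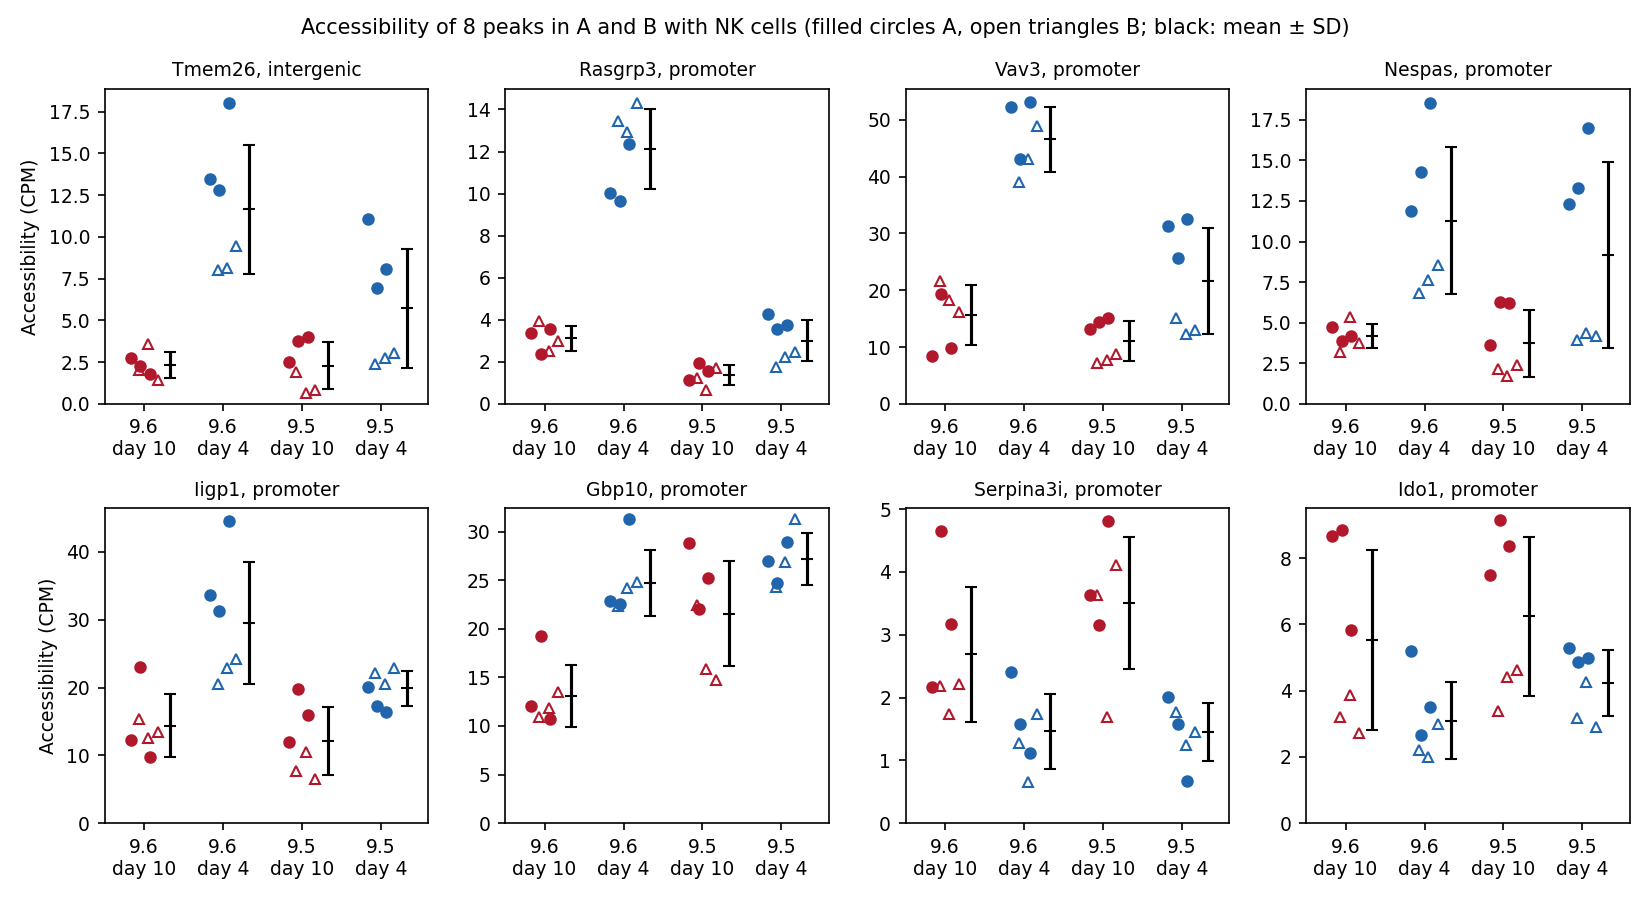
Accessibility of 8 named peaks in the 24 libraries, in CPM on a linear axis from 0, with experiment 9.6 on the left and 9.5 on the right and day 10 left of day 4 in each. Filled circles are line A, open triangles line B, and black bars the mean ± SD of 6 libraries. The day 10 libraries lie below day 4 at Tmem26, Rasgrp3, Vav3, Nespas, Iigp1 and Gbp10, with overlap in part of the experiments, and above it on average at Serpina3i and Ido1.

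Rasgrp3 encodes a guanine nucleotide exchange factor that switches on Ras after B cell receptor engagement, and its promoter peak (chr17:75464636-75466279, 29 bp from a TSS) held the second sequence above. In 9.6 it had 2.38, 3.17 and 3.93 CPM at day 10, against 9.67, 12.6 and 14.3 CPM at day 4. In 9.5 it had 0.677, 1.38 and 1.95 CPM at day 10, against 1.77, 3.01 and 4.28 CPM at day 4. The level at day 4 thus differed between the experiments, and the log2 fold change was −1.71 ± 0.14 (edgeR adjusted p = 1.95e-11), with −1.92 in 9.6 and −1.07 in 9.5.

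Vav3 encodes a guanine nucleotide exchange factor that acts downstream of antigen receptors. Its promoter peak (chr3:109339983-109342589, 633 bp from a TSS) had 8.48, 17.3 and 21.5 CPM at day 10 in 9.6, against 39.0, 46.0 and 53.1 CPM at day 4. In 9.5 it had 7.26, 11 and 15.2 CPM at day 10, against 12.3, 20.5 and 32.6 CPM at day 4. Over the 24 libraries it averaged 13.4 ± 4.92 CPM at day 10 and 34.1 ± 14.9 CPM at day 4 (SD, n = 12 each), with −1.29 ± 0.12 as log2 fold change (edgeR adjusted p = 4.19e-10). The decrease ran through the locus. Of 10 tested peaks inside chr3:109438422-109573246, which lies further along the gene, 9 were lower with a median of −1.17, and so were 5 of 5 peaks upstream (chr3:109171095-109255634, median −1.32).

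Other promoters closed at day 10 as well. Pcdhac1, a protocadherin of the clustered family (chr18:37088411-37091103), had 2.37, 4.22 and 6.82 CPM at day 10, against 3.66, 13.7 and 20.1 CPM at day 4, with −1.47 ± 0.13 as log2 fold change (edgeR adjusted p = 3.73e-10). Nespas, an antisense transcript of the imprinted Gnas locus (chr2:174294507-174296992), had 1.69, 3.81 and 6.29 CPM at day 10, against 3.92, 10.2 and 18.5 CPM at day 4, with −1.32 ± 0.13 (edgeR adjusted p = 1.72e-09). Its fold change was −1.35 in 9.6 and −1.25 in 9.5, and B-ALL alone averaged 12.5 CPM. Since ATAC-seq has no strand, the peak cannot be given to Nespas rather than to an overlapping transcript.

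Among the remaining lower promoters were Dhrs9, a short-chain dehydrogenase (−1.29 ± 0.14), Cdc42ep4, an effector of the GTPase Cdc42 (−1.18 ± 0.12), St5 (−1.16 ± 0.12), Sash1 (−1.16 ± 0.16), Zfp827, a zinc finger gene (−1.01 ± 0.10), and Trib2, a pseudokinase (−0.84 ± 0.11). Each of these was lower at day 10 in all 4 combinations of line and experiment. On the X chromosome, Ocrl, an inositol polyphosphate phosphatase, fell by 1.07 ± 0.13 on the log2 scale, Pls3, an actin-bundling protein, by 1.06 ± 0.14, and Amot, a cell junction protein, by 1.04 ± 0.15. All tested peaks of the X chromosome had a median of −0.21, with −0.55 in line B and −0.25 in line A in 9.6, and 0.06 in line B and −0.02 in line A in 9.5. Of its 1713 peaks, 55 (3.21%) were lower, and no autosome had a larger share.

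The other peaks in the list of the 12 lowest lay away from TSSs or at introns. Pde10a, a cyclic nucleotide phosphodiesterase (chr17:8856321-8857270, intron), had 0.682, 1.57 and 2.42 CPM at day 10, against 2.63, 4.47 and 7.31 CPM at day 4, without overlap between the days (−1.54 ± 0.17). Vsnl1, a calcium sensor of neurons (chr12:11392396-11394036, intron), had 1.38, 2.23 and 4.50 CPM at day 10, against 5.38, 6.67 and 9.98 CPM at day 4, also without overlap (−1.51 ± 0.15). At Vsnl1 B-ALL alone averaged 2.40 CPM, so the level at day 10 was near that of cells without NK cells. Peaks near S1pr1, the sphingosine-1-phosphate receptor of lymphocyte egress (−1.46 ± 0.16), Thbs2, a thrombospondin (−1.45 ± 0.15), Vav3 (−1.44 ± 0.20), Cnksr3 (−1.41 ± 0.19), 1700010D01Rik (−1.39 ± 0.18) and 5330417H12Rik (−1.36 ± 0.17) completed the 12.

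The peak near 5330417H12Rik (chr7:107664018-107665741, intron) was the most open of these. It had 4.34, 18.2 and 40.6 CPM at day 10, against 31.1, 42.1 and 57.6 CPM at day 4, and B-ALL alone averaged 44.1 CPM. The gap between the days was wider in 9.6 (−2.0) than in 9.5 (−0.69), a difference that passed the test (−1.35 ± 0.25, edgeR adjusted p = 0.000919).

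Lower peaks lay close together in places. With a rule chosen after the values were seen, at least 4 called peaks no more than 50 kb apart, 22 loci were found, and all were made of lower peaks. Inpp5a, an inositol phosphatase, and its neighbours (chr7:139207230-139441403) held 16 lower peaks of 37 tested, with a median of −0.72. Adamts7, a secreted metalloprotease, held 9 of 11 (chr9:90161895-90204779, median −0.86), and Cyb5r2 and its neighbours 7 of 14 (chr7:107565568-107749764, median −0.96). Loci at Nrip1, a nuclear receptor cofactor (6 of 12), Cnksr3 (5 of 6) and Iigp1 (4 of 6) had fewer. Nearby peaks can share one change in chromatin and are not independent of each other.

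Higher peaks were fewer, and the named ones had smaller fold changes than the named lower peaks, while the medians over all calls were alike in size. The highest named peak was the promoter of Serpina3i, a gene of the serine protease inhibitor cluster on chromosome 12 (chr12:104262296-104263577, 186 bp from the TSS). It had 1.69, 3.16 and 4.80 CPM at day 10, against 0.662, 1.51 and 2.40 CPM at day 4, and B-ALL alone averaged 0.729 CPM. The days overlapped, and the log2 fold change was 1.08 ± 0.18 (edgeR adjusted p = 0.000217), with 0.91 in 9.6 and 1.30 in 9.5. In lines C and D the same peak differed by 1.08. Members of this cluster share sequence, so reads could be split between copies.

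Peaks near Nap1l4, a histone chaperone (0.94 ± 0.19), and in Emid1 (0.90 ± 0.16) were next. Xrcc3, a gene of homologous recombination, had 2.48, 11 and 27.3 CPM at day 10, against 1.62, 5.86 and 14.1 CPM at day 4 (chr12:111794071-111795571, 19020 bp from the TSS, 0.83 ± 0.12, edgeR adjusted p = 1.19e-05). A peak in 3110039I08Rik had 2.15, 7.07 and 10.7 CPM at day 10, against 2.3, 3.57 and 4.42 CPM at day 4 (0.85 ± 0.15). At both genes the days overlapped. Napg, Gm15396, Gm13713, Triml1, Creb3l3 and D130040H23Rik were also among the 12 highest, with log2 fold changes of 0.77 to 0.87.

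Among higher promoters that were not in a list, Tenm4, a teneurin of the cell surface, had 30.5, 35.5 and 63.3 CPM at day 10, against 19.2, 22.5 and 40.5 CPM at day 4, a log2 fold change of 0.59 ± 0.10. Fzr1, an activator of the anaphase-promoting complex, differed by 0.75 ± 0.18 and Casp9, the initiator caspase of the mitochondrial pathway, by 0.73 ± 0.18.

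The 2 directions differed in their share of broad peaks, in level and in GC content. Of the lower peaks 59.6% overlapped broad peaks of all replicates in 1 or more of the groups, against 6.7% of the higher peaks and 32.4% of all tested peaks. A peak could pass through the groups of 1 day alone, so lower peaks could pass through day 4, where they were higher by selection. Day 4 libraries also had more broad peaks (median 46318.5, against 37243 at day 10). This split is therefore a description and does not show a difference in kind. The median level was 2.78 CPM in lower, 1.88 CPM in higher and 2.42 CPM in all tested peaks, and the median GC content was 45.0%, 54.5% and 50.5%. Among peaks called in every replicate of a group, 26 were higher and 815 lower. Fitted on that set of peaks alone, 79 were higher and 397 lower, so both counts depended on the peaks fitted.

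Libraries differed in ways that moved with the day. Total counts in peaks ranged from 3083547 to 8818956 at day 10, against 6460486 to 8808749 at day 4, and broad peaks from 28641 to 45770, against 42030 to 49968. The share of counts in promoter peaks was 40.1% to 43.9% at day 10 and 43.3% to 45.6% at day 4 in 9.6, and 38.9% to 43.0% at day 10 and 41.5% to 44.8% at day 4 in 9.5. Replicate 2 of line A at day 10 in 9.6 stood with the day 4 libraries (second principal component −40.9, against 7.55 to 133 in the other 5 libraries of that day). With the promoter share as a covariate, added after seeing the data, 111 peaks were higher and 306 lower, of which 35 and 239 were also called without it.

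**Figure D2:**
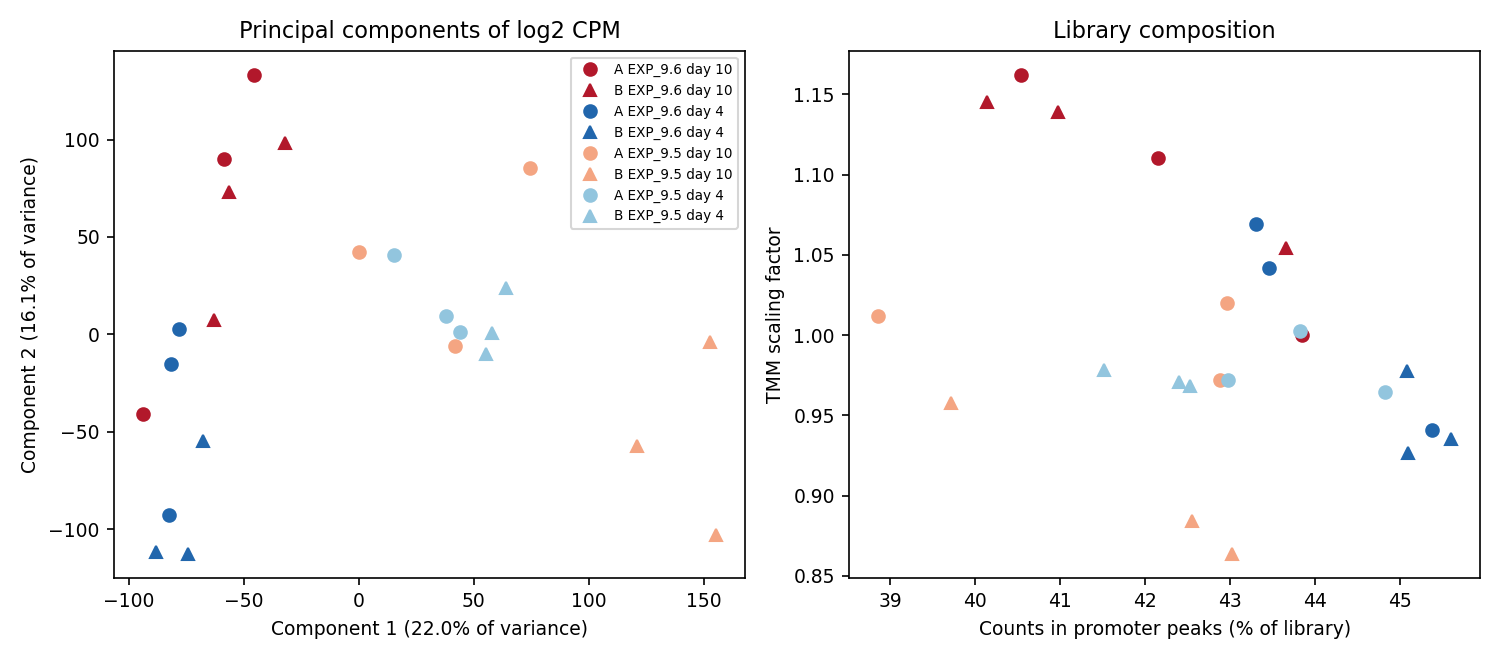
Left, the first 2 principal components of log2 CPM over all tested peaks (22% and 16.1% of the variance). Right, the percent of counts in promoter peaks against the TMM scaling factor, a unitless correction of library size; each point is 1 of the 24 libraries, by experiment and day. Replicate 2 of line A at day 10 in 9.6 lies among the day 4 libraries of that experiment.

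Single libraries decided part of the counts. Leaving out each of the 24 libraries in turn gave 167 to 1113 higher and 822 to 2229 lower peaks. In 9.6 the counts of higher and lower peaks were 1113 and 2229 without replicate 2 of line A at day 10, 167 and 832 without its replicate 3, 258 and 822 without replicate 3 of line B at day 10, 178 and 842 without replicate 3 of line A at day 4, and 186 and 862 without replicate 3 of line B at day 4. Without replicate 1 of line A at day 10 in 9.6 there were 201 higher peaks, without replicate 2 of line B at day 4 there were 221, and without replicate 2 of line B at day 10 there were 835 lower peaks. In 9.5 the higher peaks numbered 644 without replicate 3 of line A, 779 without replicate 1 of line B and 701 without replicate 3 of line B, all of day 10. Called in every one of these 24 fits were 90 of the 388 higher peaks (23.2%) and 625 of the 1365 lower peaks (45.8%), and no called peak changed sign in any of them. The 12 lowest named peaks were called in every alternative fitted, and of the promoters, Rasgrp3 and Iigp1 were called in 35 of 35 alternatives. The 12 highest named peaks were less stable. Among them 11 lost their call in line B alone, 7 in line A alone and 5 with the promoter share as a covariate.

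The experiments were also fitted apart. In 9.6, 5028 peaks were higher (3.8%) and 5087 lower (3.84%), and in 9.5, 257 were higher (0.194%) and 192 lower (0.145%). With a loess offset in place of TMM the split in 9.6 was 2552 higher and 4862 lower, so the higher share was 34.4% in place of 49.7%. The counts in 9.6 rested on single replicates: they were 222 and 994 without replicate 1 of every group, 10371 and 10888 without replicate 2, 8 and 266 without replicate 3, and 14511 and 11423 without replicate 2 of line A at day 10 alone. In 9.5 they were 54 and 30 without replicate 1, 304 and 79 without replicate 2, and 141 and 51 without replicate 3. With the promoter share as a covariate 9.6 gave 130 higher and 283 lower peaks and 9.5 gave 329 and 236.

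**Figure D3:**
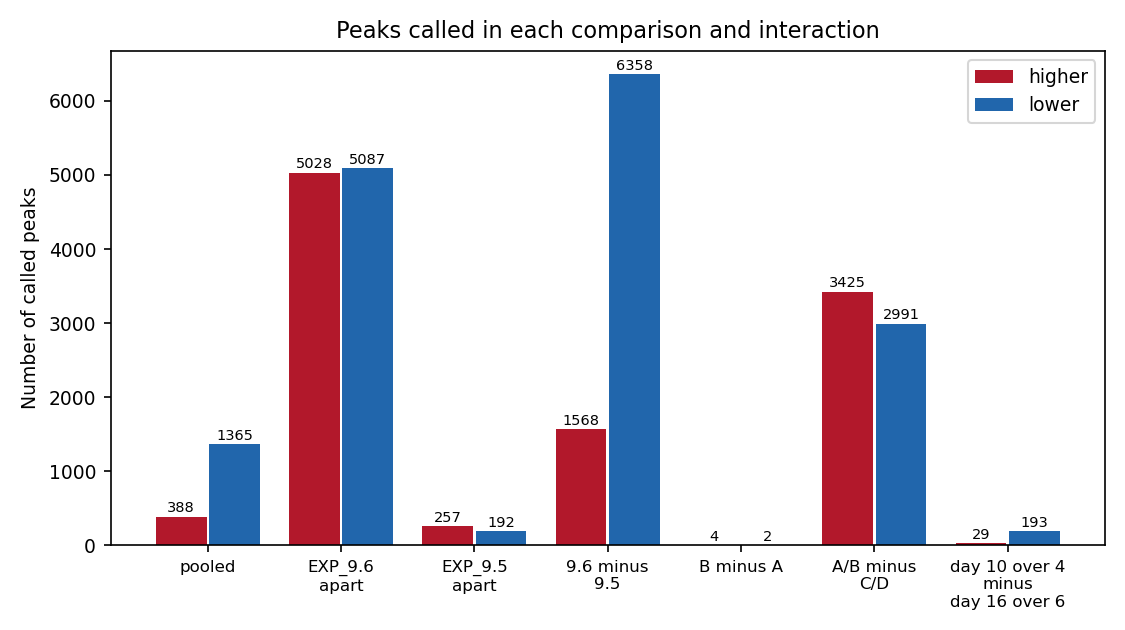
Numbers of peaks higher (red) and lower (blue) at day 10 in the comparison over both experiments, in each experiment apart and in the interaction terms, as bars from 0. The comparison over both experiments has 388 higher and 1365 lower peaks, and experiment 9.6 apart has 5028 and 5087.

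The calls of the 2 experiments were compared as shares of each list. Of the lower peaks 101 were common, 1.99% of those of 9.6 and 52.6% of those of 9.5. Of the higher peaks 11 were common, 0.219% and 4.28%, and 14 peaks that were higher in 9.5 were lower in 9.6. Over all tested peaks the 2 fold changes had the same sign in 48.25%, and Pearson's r across peaks, which are not independent, was 0.01. The shares called as broad peaks differed too, where a peak could pass through any group of either day or experiment. Of the higher peaks of 9.6, 4.14% were called in every replicate of a group, against 74.2% of those of 9.5, and 32.4% of all tested peaks. GAS letters were in 3.86% of the higher peaks of 9.6, 13.7% of those of 9.5 and 5.52% of all tested peaks, and RUNX letters in 15.3%, 26.6% and 16.7%. Of the lower peaks ISRE letters were in 12.4% in 9.6 and 12.9% in 9.5.

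The peaks called over both experiments were chosen on the effect over the 2 together, which largely fixes a shared sign, so their values in each experiment are a description. Of the 388 higher peaks 342 had that sign in all 4 combinations of line and experiment, and of the 1365 lower peaks 1099. On their own, 9.6 called 291 of the higher and 1188 of the lower peaks, 9.5 called 29 and 129, and both called 11 and 101. Their median log2 fold changes were 0.92 and −0.91 in 9.6, and 0.57 and −0.49 in 9.5.

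**Figure D4:**
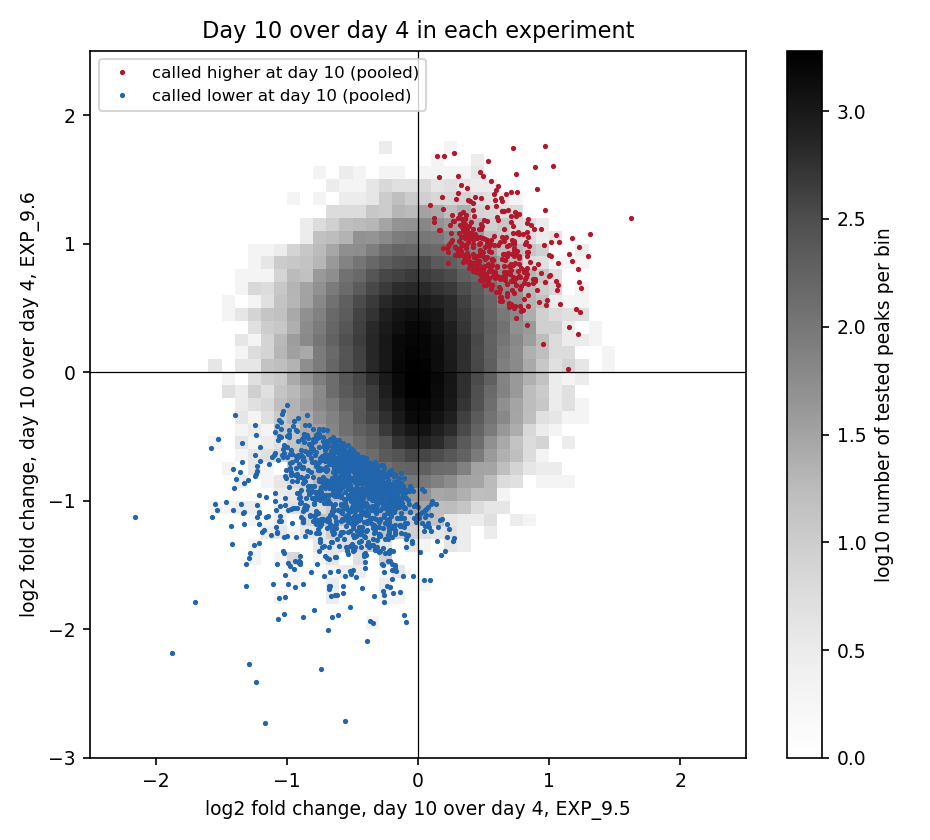
Log2 fold change of day 10 over day 4 in experiment 9.5 (x axis) and in experiment 9.6 (y axis) for all tested peaks, as a density in grey. Red and blue points are the peaks called higher and lower over both experiments. That choice largely places them in the upper right and the lower left.

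The difference between the experiments was tested as an interaction, 9.6 minus 9.5. The fold change of day was higher in 9.6 at 1568 peaks (1.18%) and lower at 6358 (4.8%). Of the peaks called over both experiments, 4 higher and 198 lower ones had an interaction call in either direction. With a loess offset the counts were 1409 and 2455, so the positive share was 36.5% in place of 19.8%. They depended on single replicates as well, with 176 and 1007 without replicate 1, 3463 and 11365 without replicate 2, 0 and 4 without replicate 3 of every group, and 5699 and 13084 without replicate 2 of line A at day 10 in 9.6.

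Klhl4, on the X chromosome (chrX:113992406-113993868), had the lowest interaction of the named peaks. In 9.6 it had 1.82, 2.91 and 4.80 CPM at day 10, against 5.08, 6.38 and 9.94 CPM at day 4, and in 9.5 it had 0.899, 3 and 6.29 CPM at day 10, against 0.92, 1.64 and 2.88 CPM at day 4. The interaction was −2.07 ± 0.32 (edgeR adjusted p = 0.000121), with a call in 9.6 (−1.18) and none in 9.5 (0.85, edgeR adjusted p = 0.0837). Pik3r4, the regulatory subunit of the class III phosphatidylinositol kinase, showed the reverse pattern of calls. Its intronic peak (chr9:105659874-105660378) had 1.02, 1.80 and 2.3 CPM at day 10 in 9.6, against 2.05, 2.77 and 3.98 CPM at day 4, and 5.09, 7.62 and 11.8 CPM at day 10 in 9.5, against 2.39, 3.26 and 4.2 CPM at day 4. It was called higher in 9.5 (1.27 ± 0.17) and not in 9.6 (−0.65, edgeR adjusted p = 0.0539), and the interaction was −1.96 ± 0.29 (edgeR adjusted p = 0.000102). Cntnap2, a neurexin-family adhesion gene, was lower in 9.6 (−1.89) and had −0.11 in 9.5. At Sptbn5, a spectrin, the peak was called in both and in opposite directions, lower in 9.6 (−1.09) and higher in 9.5 (0.65).

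On the other side, an exonic peak of Lingo3 (chr10:80835653-80836139) had 1.77, 2.5 and 3.54 CPM at day 10 in 9.6, against 0.843, 1.35 and 1.47 CPM at day 4, without overlap. In 9.5 it had 0.726, 1.37 and 2.71 CPM at day 10, against 2.38, 2.63 and 3.23 CPM at day 4. The interaction was 1.81 ± 0.34 (edgeR adjusted p = 0.00105). Adcy2, an adenylyl cyclase (1.77), Gm28536 (1.68), the homeobox gene Hoxc9 (1.60) and Mroh1 (1.58) followed, and each was called higher in 9.6.

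Few peaks were called as differing between the sister lines. The fold change of day was higher in B than in A at 4 peaks (0.00302%) and lower at 2 (0.00151%). Of the 132466 tested peaks 5975 had an unadjusted p under 0.05, no more than that threshold passes where nothing differs. The fit held no day by experiment term, so few calls do not show that the lines were alike. Leaving out a replicate number gave 0 to 2 peaks in each direction: 0 and 0 without replicate 1, 1 and 0 without replicate 2, and 2 and 2 without replicate 3. DESeq2 called 9 and 3. The segments Ighd2-5, Ighd2-4 and Ighv1-82 were 3 of the 4 and lie at the immunoglobulin heavy chain locus, where B cells rearrange their D and V segments. At Ighd2-5 (chr12:113466117-113467849) line B in 9.6 had 4.51, 3.46 and 3.25 CPM at day 10, against 5.34, 3.48 and 4.23 CPM at day 4, and line A had 0.591, 0.453 and 0.38 CPM at day 10, against 5.20, 4.71 and 6.60 CPM at day 4. In 9.5 line B had 9.68, 6.09 and 7.71 CPM at day 10, against 6.19, 4.75 and 4.35 CPM at day 4, and line A had 1.82, 1.95 and 1.86 CPM at day 10, against 6.80, 4.86 and 6.06 CPM at day 4.

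The days thus did not overlap in line A in either experiment and the peak stayed open in line B. The interaction was 2.57 ± 0.33 (edgeR adjusted p = 8.09e-05), and Ighd2-4 next to it had 2.271 ± 0.32. Ighv1-82 had 1.45 ± 0.25 and Pttg1ip 1.26 ± 0.23. Segments of this locus are rearranged in B cells and share sequence, so these values are uncertain. In the opposite direction, Gapt, a GRB2-binding adaptor, had −1.65 ± 0.28 and an intronic peak of 2610035D17Rik had −1.37 ± 0.22. The 2610035D17Rik peak in 9.6 had 3.93, 5.06 and 4.55 CPM in line B at day 10, against 15.7, 20.9 and 19.6 CPM at day 4, and 19.7, 26.1 and 16.6 CPM in line A at day 10, against 29.0, 29.2 and 34.6 CPM at day 4.

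The same contrast was set against lines C and D, which come from another parental line and were sampled on the same days in the same experiments. The difference A/B minus C/D was positive at 3425 peaks (2.59%) and negative at 2991 (2.26%). Counts were 101 and 53 without replicate 1 of every group, 659 and 322 without replicate 2 and 7438 and 5064 without replicate 3. Thbs2 had 1.02, 2.22 and 5.99 CPM at day 10 in A/B, against 2.53, 8.01 and 12.2 CPM at day 4, a log2 fold change of −1.45, against 0.28 in C/D, and the difference was −1.71 ± 0.23 (edgeR adjusted p = 4.46e-06). St5 had −1.16 in A/B against 0.41 in C/D (difference −1.55), and Olfr725 −0.77 against 0.79 (−1.54). Rasgrp3, with −1.71 in A/B, had −1.56 in C/D. Among positive differences, Gimap7, a GTPase of the immunity-associated protein family, had 0.34 in A/B against −1.09 in C/D (1.45 ± 0.19), and Ighd2-3 0.50 against −1.18 (1.62 ± 0.29).

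In experiment 9.7 lines A and B were sampled at days 16 and 6, and the difference of fold changes, day 10 over 4 minus day 16 over 6, was positive at 29 peaks (0.0219%) and negative at 193 (0.146%). The experiment and the days cannot be told apart here. With a loess offset the counts were 63 and 132, so the positive share was 32.3% in place of 13.1%. The counts were 0 and 0 without replicate 1, 2 and 0 without replicate 2 and 88 and 836 without replicate 3 of every group. An intronic peak of Bach2, a transcriptional repressor of the B cell lineage, had −0.24 for day 10 over 4 against 1.07 for day 16 over 6 (−1.31 ± 0.21, edgeR adjusted p = 0.00285), and one of Dock10, an exchange factor for Cdc42 and Rac, −0.62 against 0.71 (−1.34 ± 0.28).

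Genes of the IFN-γ response were described by lists. For each gene the tested peak nearest to a TSS within 3 kb was taken, and the share called is read against the 0.178% higher and 0.787% lower of all promoter peaks, whose median was −0.06. Of 16 promoters of IFN-γ-induced GTPases, none was higher and 2 were lower, with a median of −0.29. At an unadjusted p under 0.05, 0 were higher and 13 lower, and DESeq2 called 0 and 2. At that unadjusted p 5.86% of all promoter peaks were higher and 22.4% lower, against which the unadjusted counts of each list are read. With promoter peaks refitted alone 1 of the 16 was lower. Both lower promoters encode GTPases that act against intracellular parasites.

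Iigp1 (chr18:60380312-60383399, 828 bp from a TSS) had 6.51, 12.4 and 23 CPM at day 10, against 16.4, 22.5 and 44.5 CPM at day 4, with B-ALL alone at a mean of 2.32 CPM. Its log2 fold change was −0.87 ± 0.13 (edgeR adjusted p = 2.67e-05), with −0.71 in line B and −1.25 in line A in 9.6, and −1.45 in line B and −0.15 in line A in 9.5. Thus Iigp1 remained above the cells grown alone at day 10 while it was lower than at day 4. Gbp10 (chr5:105238775-105241260) had 10.8, 15.3 and 28.9 CPM at day 10, against 22.3, 24.8 and 31.3 CPM at day 4, with 5.41 CPM in B-ALL alone, and −0.63 ± 0.11 (edgeR adjusted p = 0.000287). Gbp10 was called in 28 of 35 alternatives and not with the promoter share as a covariate, and it shares sequence with other GBP genes.

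Peaks outside promoters were counted apart from these. Of 90 such peaks assigned to the GTPases by the nearest TSS, 0 were higher and 8 lower, against 0.32% and 1.09% of all peaks outside promoters. They included a peak 7404 bp from Irgm1 (−0.81 ± 0.13, median 6.42 CPM at day 10 and 15.5 CPM at day 4) and one 6876 bp from Igtp (−0.68 ± 0.10, 9.95 and 19.1 CPM). The share was not particular to this list, since NK cell genes had 0 higher and 8 lower of 100 peaks outside promoters. In 9.6 alone 3.38% of all promoter peaks were higher and 3.96% lower, and in 9.5 alone 0.15% and 0.194%. Of the 16 promoters 6 were lower in 9.6 alone, Iigp1, Gbp2, Gbp5, Gbp10, Tgtp1 and Gvin1, and 1 in 9.5 alone, Iigp1.

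For 47 antiviral interferon-stimulated genes, 0 promoters were higher and 0 lower, with a median of −0.22 (1 higher and 26 lower at an unadjusted p under 0.05, and 0 by DESeq2). In 9.6 alone Oas2 (−0.64), an activator of RNase L, Isg15 (−0.72), a ubiquitin-like modifier, Cmpk2 (−0.63), Herc6 (−0.72) and Ifi203 (−0.68) were lower. In 9.5 alone Mx1, a dynamin-like antiviral GTPase, was higher (0.63). Mx1 had 5.08, 11 and 20.2 CPM at day 10, against 4.98, 7.49 and 16.7 CPM at day 4, and did not pass the fold threshold over both experiments (0.43).

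Of 22 promoters of interferon signalling none passed in either direction (median −0.17, 0 higher and 12 lower at an unadjusted p under 0.05). None of 24 promoters of MHC class I presentation (median −0.11) or 11 of MHC class II presentation (median 0.08) passed, with 0 and 8, and 3 and 1, higher and lower at an unadjusted p under 0.05. In 9.6 alone H2-M3, a non-classical class I gene, was lower (−0.58). Away from promoters 0.32% of all peaks were higher and 1.09% lower. There 1 of 34 class I peaks was lower, at H2-T24 (−0.71 ± 0.12), and 1 of 177 of interferon signalling, at Jak1 (−0.59 ± 0.15). Of 136 peaks of antiviral genes 1 was higher, 57349 bp from Isg20 (0.90 ± 0.24), and 1 lower, at Usp18. The Isg20 peak was weak, with means of 1.54 CPM at day 10 and 0.81 CPM at day 4. Lower too were 1 of 87 of the inhibitory ligands, at Pdcd1lg2, and 1 of 15 of the chemokines, 14538 bp from Cxcl10 (−1.11 ± 0.23). The Cxcl10 peak was also weak, with means of 0.70 CPM at day 10 and 1.57 CPM at day 4.

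**Figure D5:**
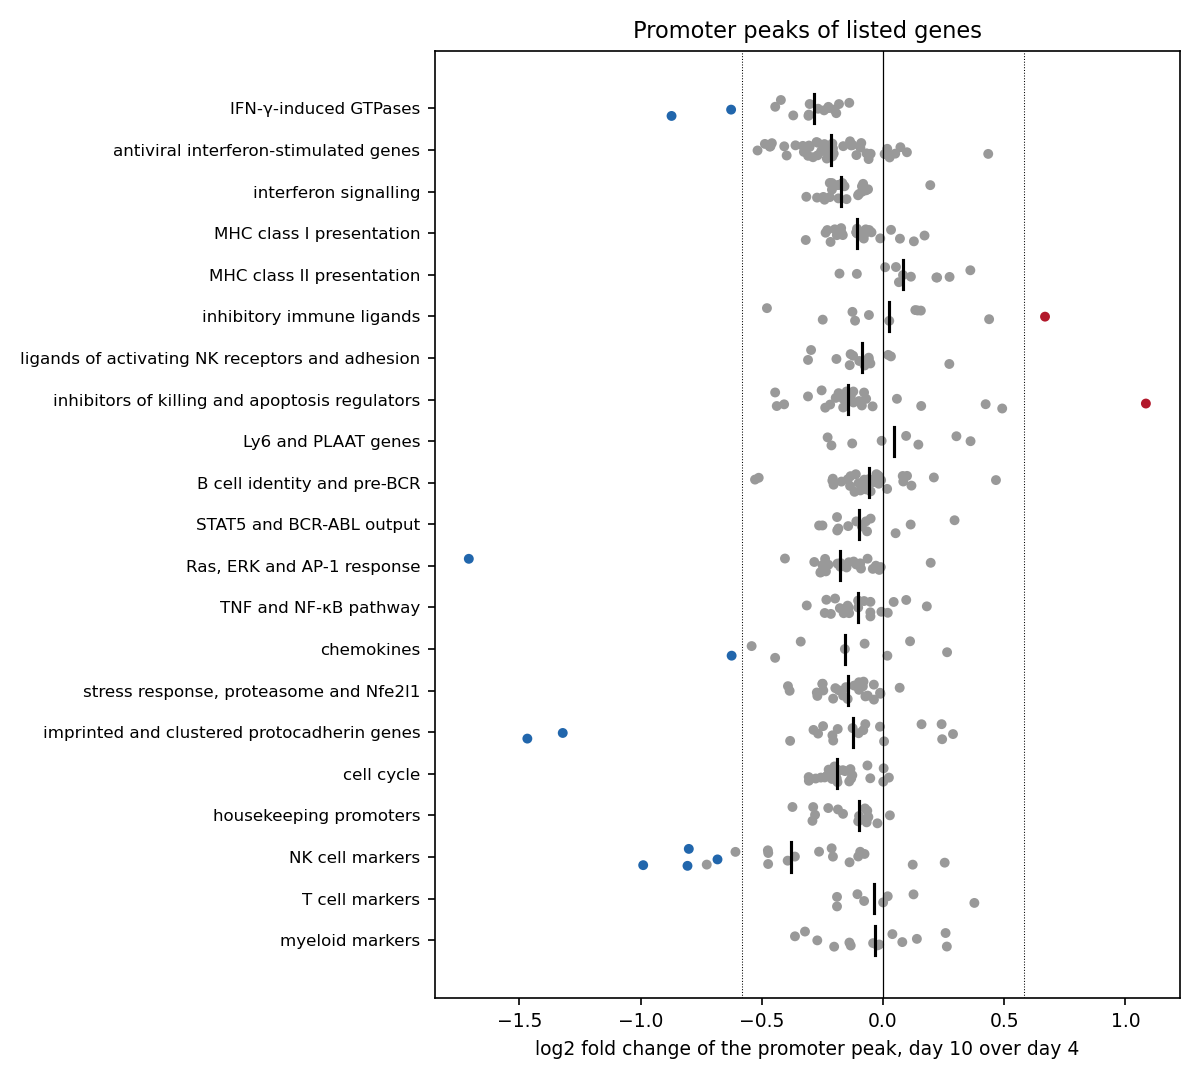
Log2 fold change of day 10 over day 4 at the promoter peaks of each gene list, 1 point per gene, with the median as a black bar and dotted lines at −0.58 and 0.58. The GTPase list has a median of −0.29 and the NK cell markers −0.38, against −0.06 over all promoter peaks. Lists of other kinds also lie below that, with −0.19 for the cell cycle, −0.18 for the Ras, ERK and AP-1 response and −0.10 for housekeeping genes.

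Of 11 promoters of inhibitory immune ligands 1 was higher. Ido1, which encodes an enzyme of tryptophan breakdown that restrains lymphocytes, had 2.73, 5.23 and 9.14 CPM at day 10, against 1.99, 3.34 and 5.29 CPM at day 4, and 3.45 CPM in B-ALL alone (chr8:24594807-24596114, 0.67 ± 0.13, edgeR adjusted p = 0.00137). The days overlapped, and the peak was called in 34 of 35 alternatives. Cd274, which encodes PD-L1, had 10.3, 14.8 and 24 CPM at day 10, against 19.6, 21.0 and 28.0 CPM at day 4. It was lower in 9.6 alone (−0.72) and below the fold threshold over both experiments (−0.48). Ligands of activating NK receptors and adhesion molecules had 0 of 14 called in either direction (0 and 2 at an unadjusted p under 0.05), and inhibitors of killing and apoptosis regulators had 1 of 28 higher, Serpina3i, and 0 lower.

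Few promoters of the leukaemia's own programmes passed. Of 34 promoters of B cell identity 0 passed in either direction (2 higher and 4 lower at an unadjusted p under 0.05). In 9.6 alone Ikzf3, the factor Aiolos, and Rag1, the recombinase, were lower (both −0.71), and in 9.5 alone Ms4a1, which encodes CD20, was higher (0.74). Of 26 promoters of the Ras, ERK and AP-1 response 1 was lower, Rasgrp3. Of 228 peaks assigned to these genes 3 were lower (1.32%, against 1.03% of all tested peaks), the Rasgrp3 promoter and distal peaks of the feedback inhibitors Spry2 (−0.97 ± 0.18) and Spry4 (−0.66 ± 0.12). STAT5 targets (14 promoters), NF-κB genes (22), stress and proteasome genes (25), cell cycle genes (28), housekeeping genes (16) and Ly6 and PLAAT genes (8) had 0 called in either direction, with 1, 0, 0, 0, 0 and 0 higher and 5, 6, 11, 17, 7 and 1 lower at an unadjusted p under 0.05. Outside promoters, where 0.32% of all peaks were higher and 1.09% lower, single peaks were called. Higher were Ccnd3 (0.91 ± 0.22, 1 of 75 peaks of the STAT5 targets) and Pla2g16 (1.02 ± 0.29, 1 of 17 of the Ly6 and PLAAT genes). Tcf3 was also higher (0.66 ± 0.16, 1 of 225 of B cell identity). Lower were Bach2 (−0.92 ± 0.22, 1 of 225 of B cell identity) and Ccnd1 (−0.63 ± 0.16, 1 of 121 of the cell cycle). The Ccnd3 and Bach2 peaks were weak, with means of 1.65 and 0.85 CPM at day 10, against 0.81 and 1.63 CPM at day 4. They lay 15473 and 111859 bp from a TSS, and the Ccnd1 peak lay 52046 bp from one. Of 9 chemokine promoters Ccl12, a ligand of CCR2, was lower (−0.62 ± 0.13, not called with promoter peaks refitted alone), and of 19 imprinted and protocadherin promoters Nespas and Pcdhac1 were.

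Of 20 promoters of NK cell genes, 4 were lower and 0 higher (median −0.38): Klra1 (−0.99), Klri2 (−0.81), Klra5 (−0.80) and Prf1, the pore-forming perforin (−0.68 ± 0.14). Klra1 averaged 1.43 CPM at day 10, 2.90 CPM at day 4 and 3.17 CPM in B-ALL alone, and Klri2 2.67, 4.72 and 5.95 CPM. Klra5 averaged 2.24, 3.88 and 3.39 CPM, and Prf1 2.3, 3.82 and 2.36 CPM. The Klra1 and Klri2 promoters were as open in cells grown alone as at day 4 or more. Klrb1c, Eomes and Tbx21 were too, at 9.45, 16.2 and 11.1 CPM alone, against 8.38, 16.0 and 10.9 CPM at day 4. Gzmb stood above B-ALL alone on both days (3.12 CPM at day 10, 4.30 CPM at day 4 and 2.00 CPM alone). So did Gzma (1.68, 1.41 and 0.63 CPM), Nkg7 (5.34, 6.91 and 4.34 CPM) and Il2rb (8.54, 9.18 and 6.38 CPM). Klrd1 had 4.15, 5.71 and 5.28 CPM. The summed level of the 9 defining NK markers with a tested peak was 53.8 to 65.0 CPM at day 10 (median 57.5) and 56.8 to 73.4 CPM at day 4 (median 67.7), against 48.9 to 64.3 CPM in B-ALL alone (median 57.2). Because the values of B-ALL alone were scaled separately, small gaps between these sums are not read. Ncr1, Klrk1 and Ifng had no tested promoter peak. The sum of the 10 B-ALL markers was 367 to 882 CPM at day 10 (median 482) and 415 to 654 CPM at day 4 (median 548). Promoters of T cell genes (8) and myeloid genes (14) had 0 called, with 1 and 0 higher and 0 and 3 lower at an unadjusted p under 0.05. Of 100 peaks outside promoters assigned to NK cell genes 0 were higher and 8 lower, against 0.32% and 1.09% of all such peaks. They included an intergenic peak 117662 bp from Fasl (means of 1.94 CPM at day 10, 3.01 CPM at day 4 and 1.04 CPM in B-ALL alone). Another intergenic peak lay 22341 bp from Gzmb (1.41, 2.34 and 0.91 CPM). Klra3 (2.02, 3.23 and 3.47 CPM) and Klra9 (1.35, 2.62 and 2.49 CPM) were also among them. In a fit of both days and B-ALL alone together, Klra9 at day 4 had a log2 fold change of −0.025 against B-ALL alone. The part of remaining NK cells in the lower peaks was not tested.

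Beside B-ALL alone, sampled at day 4 in the same experiments, the lower peaks fell into kinds. These values share the day 4 libraries with the contrast and are a description. Of the 1365 lower peaks 576 (42.2%) stood above B-ALL alone at day 4 by a log2 fold change of 0.58 or more, 499 of them were still above it at day 10, and ISRE letters were in 22.9%, against 15.05% of all 8113 tested peaks with that level at day 4. Another 407 were above B-ALL alone at day 4 by less (ISRE in 13%), and 382 were at or below it (ISRE in 7.85%). The peaks of Epb41l2, a membrane skeleton gene (0.95), Fsip1 (1.76) and Enpp5 (0.87), whose sequences are printed above, belong to the first kind, and had −0.29, 0.68 and −0.15 against B-ALL alone at day 10. Rasgrp3, with −0.49 at day 4 and −2.14 at day 10, belongs to the last. Of the 388 higher peaks 381 were above B-ALL alone at day 10, and 266 were at or below it at day 4.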

How the data were processed

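Leukaemia cells were profiled by ATAC-seq. The authors aligned reads to GRCm38 with STAR (version not given in the sources used here), marked duplicates with Picard 2.27.4, called broad peaks per library with MACS2 2.2.7.1 and merged them over all libraries. The blacklist given in their methods is for GRCh38, a human build. The authors deposited raw counts per consensus peak (featureCounts 2.0.1, a read pair counting where a fraction of 0.2 of it lay in the peak), and per library the broad peaks with a −log10 q-value of at least 1. The deposited start positions of the count table are counted from 0, so 1 was added.

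Peaks passing edgeR's count filter over 8 groups were tested with edgeR 4.0.16 (quasi-likelihood F-test, TMM) in R 4.3.3, with a term per cell line and experiment. The same test was also run on simulated counts. Within a line and experiment those differed between libraries only in depth, random spread and planted effects of day. They therefore do not cover the library differences described above. SE was derived from the log2 fold change and the F statistic (its size divided by the root of F). TSSs and annotation came from the reference for GRCm38. Named peaks were the 12 highest and 12 lowest calls with the same sign in 4 of 4 combinations and a mean of at least 2 CPM, 1 per gene, and for each interaction the 5 highest and 5 lowest calls by the same minimum. Exceptions named in the text were chosen after their values were seen, and some named peaks are not reported here. The members and gene lists were chosen with earlier results of these data known. The common coefficient of biological variation was 0.148 over both experiments, 0.141 in 9.6 and 0.102 in 9.5, with 19, 9 and 9 residual degrees of freedom. The methods describe the co-cultures of each condition as set up in 3 biological replicates, so p-values measure the spread between cultures of the same barcoded lines. In line C at day 10 in 9.5 the gap between replicates 2 and 3 was below sampling noise, so their mean stood for 1 sample and the comparison with C/D had 47 samples. Alternatives were DESeq2 1.42.0, its size factors, a loess offset, no count filter, other peak sets, single lines, left-out libraries, a replicate block and, chosen after seeing the data, the promoter share as a covariate and the omission of 2 libraries.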

Additional observations from a re-analysis of the deposited data

Results flagged for a closer look

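Differences between groups in the effect of day, tested as interaction terms, were found at 1568 peaks higher and 6358 lower for 9.6 minus 9.5, at 4 higher and 2 lower for line B minus line A, at 3425 higher and 2991 lower for A/B minus C/D, and at 29 higher and 193 lower for day 10 over 4 minus day 16 over 6. Between experiments the differences in log2 fold change were 1.81 at Lingo3, 1.77 at Adcy2, 1.68 at Gm28536, 1.60 at Hoxc9, 1.58 at Mroh1, −2.07 at Klhl4, −1.96 at Pik3r4, −1.82 at Alcam, −1.82 at Cntnap2 and −1.77 at Sptbn5. Between lines B and A they were 2.57 at Ighd2-5, 2.271 at Ighd2-4, 1.45 at Ighv1-82, 1.26 at Pttg1ip, −1.65 at Gapt and −1.37 at 2610035D17Rik. Between the pairs of lines they were 1.62 at Ighd2-3, 1.54 at Pik3r4, 1.46 at Gm21833, 1.46 at Gm26522, 1.45 at Gimap7, −1.71 at Thbs2, −1.60 at Gm4951, −1.55 at St5, −1.55 at 2610035D17Rik and −1.54 at Olfr725. Between the intervals they were 1.63 at Gm5096, 1.57 at Spag17os, 1.43 at Zc3h11a, 1.42 at Gm13479, 1.36 at 4933438K21Rik, −1.34 at Dock10, −1.31 at Bach2, −1.30 at Rassf4, −1.25 at Ninj2 and −1.25 at AC134908.3.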

How the results depend on the processing

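All counts are given as higher and lower peaks. Over both experiments, where 388 and 1365 were called, DESeq2 gave 251 and 923, a loess offset 292 and 1969, no count filter 216 and 1808, peaks called in every replicate of a group 79 and 397, promoter peaks refitted alone 129 and 124, scaling and dispersion from all 3 arms 701 and 1288, line B alone 56 and 717, line A alone 107 and 545, and the promoter share as a covariate 111 and 306. Leaving out single libraries gave 167 to 1113 and 822 to 2229. In 9.6 (5028 and 5087) DESeq2 gave 1858 higher, no filter 2666, the loess offset 2552 and the covariate 130 and 283, and left-out replicates 8 to 14511 and 266 to 11423. In 9.5 (257 and 192) DESeq2 gave 168 and 47, and left-out replicates 54 to 304 and 30 to 165. For 9.6 minus 9.5 (1568 and 6358) DESeq2 gave 721 higher, no filter 882 higher, the loess offset 2455 lower and the covariate 415 and 2628, and left-out replicates 0 to 5699 and 4 to 13084. For line B minus A (4 and 2) DESeq2 gave 9 higher, the loess offset 13 and 8, and left-out replicates 0 to 2 and 0 to 2. For A/B minus C/D (3425 and 2991) no filter gave 5758 and 1434, the loess offset 1584 and 1114, and left-out replicates 101 to 7438 and 53 to 5064. For day 10 over 4 minus day 16 over 6 (29 and 193) DESeq2 gave 17 and 1791, its size factors 78 and 927, the loess offset 63 higher, no filter 665 lower, and left-out replicates 0 to 88 and 0 to 836. The cause of these shifts was not tested.

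The labels do not say whether a day 10 library continued the day 4 culture of the same number, and the main fits took the days as unpaired. Deviations from the group mean correlated by −0.288 to 0.0584 in 12 same-numbered pairs. With 3 libraries per group, this cannot show whether the days were paired. A replicate block gave 111 and 866 over both experiments, 1856 higher in 9.6, 605 and 4083 for 9.6 minus 9.5, 1 and 0 for line B minus A, 1616 lower for A/B minus C/D, and 0 and 1 for the intervals, and 3 of 12 libraries correlated best with their own number. No named peak changed sign under the alternatives run. Of the values of named peaks under alternatives, 1007 kept their call and 112 lost it. No scaling shifted the median of all peaks by more than 0.1 on the log2 scale. Depth limits the weak peaks: the median level of the higher peaks was 1.88 CPM, and 1 library of line B at day 10 held 3083547 counts.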
